A study of Mus musculus with 17 samples.

Results

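Neat1 and Malat1 are long noncoding RNAs that stay in the nucleus and whose genes lie next to each other. Both were followed here in the livers of mice given a high-fat diet, a single binge of ethanol, or both, as all 5 probes that carry either symbol in the deposited ratio table, which are 2 genes of 21452 with a symbol in that table. Livers of 17 male mice, C57BL/6N by the sample labels and C57BL/6J by the study's methods, were measured on 2-color arrays, 1 array per mouse. The chow group (4 mice) had chow for 3 months and maltose by gavage, the 1B group (4 mice) chow and 1 ethanol gavage of 5 g/kg, the HFD group (4 mice) high-fat diet for 3 months and maltose, and the HFD+1B group (5 mice) high-fat diet and the same ethanol gavage. The Cy5 channel held the liver and the Cy3 channel a common reference, named as assorted mouse RNA in one label and as liver in another, so every level given here is a log2 ratio of liver over reference, and a difference of 1 is a 2-fold change. The median Cy5 signal of an array lay between 63 and 158 intensity units, and 73.9% to 86% of probes were well above background.

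Neat1 is the architectural RNA of paraspeckles, nuclear bodies that hold RNA-binding proteins such as Nono, Sfpq, and Pspc1, and it is known to be induced by several kinds of cell stress. Malat1 is an abundant RNA of most tissues, including liver, and resides in nuclear speckles, where splicing factors gather. RNase P cuts the 3′ end of Malat1 and of the long form of Neat1, and the RNA then ends in a triple helix in place of a poly(A) tail. Ribosomal RNA, the largest part of cellular RNA, is made as a 45S precursor and cut into the mature 18S and 28S molecules.

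The probes are shown because the Malat1 probes differ from each other in what they measured. Neat1 had 1 probe and Malat1 had 4, numbered by their Cy5 brightness, and each is a 60-base oligonucleotide printed as the array files give it. No part is in capitals, since no stretch within a probe is singled out.
Neat1 probe: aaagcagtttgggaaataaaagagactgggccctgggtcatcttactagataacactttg
Malat1 probe 1: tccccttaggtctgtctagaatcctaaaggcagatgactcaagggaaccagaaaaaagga
Malat1 probe 2: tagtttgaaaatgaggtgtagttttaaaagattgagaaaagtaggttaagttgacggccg
Malat1 probe 3: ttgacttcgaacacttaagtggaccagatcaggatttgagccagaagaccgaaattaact
Malat1 probe 4: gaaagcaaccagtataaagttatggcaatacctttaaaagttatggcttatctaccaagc
A probe for 18S ribosomal RNA, the brighter of the pair for that gene, is shown beside them because its level is set against theirs.
Rn18s probe 1: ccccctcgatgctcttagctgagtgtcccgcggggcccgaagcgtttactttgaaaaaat
The GC content was 41.7% for the Neat1 probe, 45% for Malat1 probe 1, 35% for Malat1 probes 2 and 4, and 41.7% for Malat1 probe 3. The longest run of bases that any member probe shared with a ribosomal RNA probe, on either strand, was 8 bases. Where in the transcripts the probes lie was not analysed here. No spot of these probes was saturated, and all were well above background in the liver channel.

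The genes were chosen with their levels in these arrays already known, as were the ribosomal RNA probes, so their levels and differences are given as a description with no test. The HFD arrays stood apart from all others in ribosomal RNA. The mean log2 ratio of the 5 ribosomal RNA probes (2 for Rn18s, 1 for Rn28s1, and 2 for Rn45s) was 0.62, 0.22, 0.40, and 0.56 in chow mice 1 to 4 and -1.16, -0.11, 0.12, and -0.31 in 1B mice 1 to 4. It was -2.85, -2.15, -3.81, and -3.31 in HFD mice 1 to 4, and 0.35, 0.21, 0.22, 1.12, and -1.03 in HFD+1B mice 1 to 5. Rn18s probe 2 had no value in chow mouse 1, and the mean of the other chow mice was used in its place. All 4 HFD arrays lay below every other array, and 1B mouse 1 and HFD+1B mouse 5 were the lowest of the rest. The difference of HFD from chow was -3.48 (SE 0.43), that of HFD+1B from HFD was 3.20 (SE 0.41), and that of 1B from chow was -0.82 (SE 0.43). The Cy5 signal of Rn18s probe 1 was 108058 to 135334 units in chow and 1971 to 6645 units in HFD, while its Cy3 signal was 65376 to 102486 and 45245 to 66557 units. For this probe the liver signals of the chow and HFD groups lay far apart, while their reference signals overlapped. The reference signals overlapped for the Rn45s probes too. They did not for Rn18s probe 2 (5502 to 11666 units in chow and 1620 to 2133 in HFD) or the Rn28s1 probe (1861 to 3735 and 732 to 991). In the individual probes the HFD minus chow difference ran from -4.03 for Rn18s probe 1 to -2.26 for the Rn28s1 probe.

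Neat1 was lowest in chow mice and highest in HFD mice. Its log2 ratio was -1.45, -0.88, -1.79, and -1.93 in chow mice 1 to 4 and -0.03, 0.05, 0.28, and 0.10 in 1B mice 1 to 4. It was 0.56, 0.52, 2.10, and 1.00 in HFD mice 1 to 4, and -0.44, 0.23, -1.03, -0.34, and -0.21 in HFD+1B mice 1 to 5. Every 1B mouse and every HFD mouse was above every chow mouse, and every HFD+1B mouse was below every HFD mouse, with HFD mouse 3 the highest of all arrays. Of all 19359 genes tested, 6.15% lay without overlap above chow in 1B (5.84% below), 9.02% above chow in HFD (10.3% below), and 7.03% below HFD in HFD+1B (8.32% above), and nothing is read from this for genes chosen on these values.

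**Figure D1:**
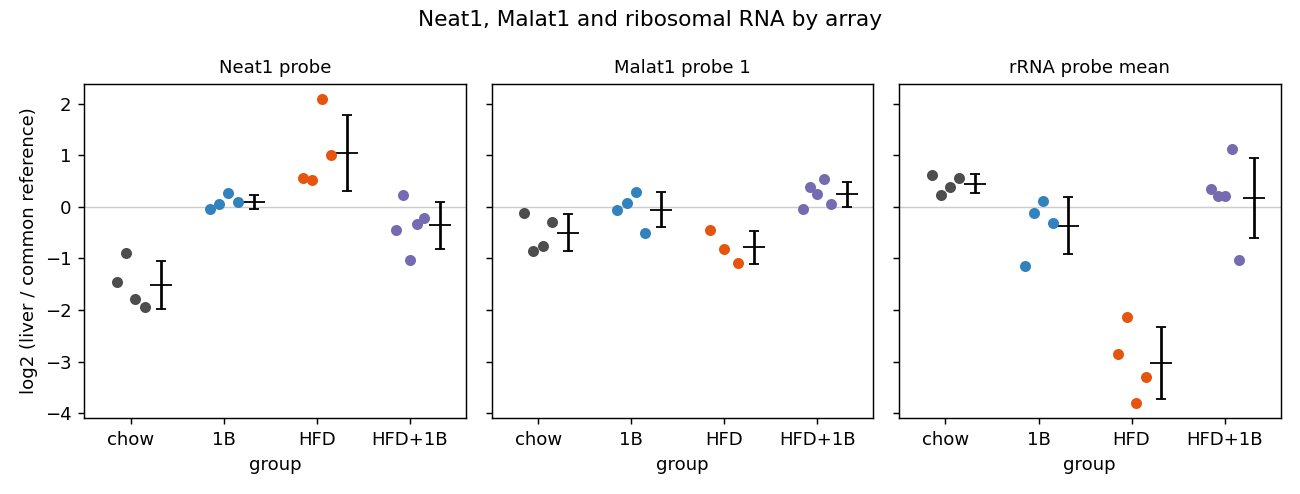
Log2 ratio of liver over common reference (vertical axis) for the Neat1 probe, Malat1 probe 1, and the mean of the 5 ribosomal RNA probes in the 4 groups, with 1 colored point per mouse and the mean with its SD as a black bar. Neat1 means ran from -1.51 in chow to 1.05 in HFD, while the ribosomal RNA mean was -3.03 in HFD and between -0.36 and 0.45 in the other groups.

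The mean of Neat1 was -1.51 ± 0.47 (SD, n = 4) in chow, 0.10 ± 0.13 (SD, n = 4) in 1B, 1.05 ± 0.73 (SD, n = 4) in HFD, and -0.36 ± 0.46 (SD, n = 5) in HFD+1B. Ethanol on chow thus went with a higher level, by 1.61 (SE 0.31), or 3.06-fold. High-fat diet without ethanol went with a level higher than chow by 2.56 (SE 0.31), or 5.90-fold. Ethanol on high-fat diet went with a lower level, a difference of -1.40 (SE 0.29), or 2.64-fold. The ethanol difference on high-fat diet minus that on chow was -3.02 (SE 0.42).

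In the order of Neat1 levels, HFD lay above 1B with no overlap, and 1B and HFD+1B overlapped, with a difference of -0.46 (SE 0.29). HFD+1B was above chow by 1.16 (SE 0.29), and these groups overlapped through HFD+1B mouse 3 and chow mouse 2. The arrays came from 5 slides that each held several groups, and the directions were the same within every slide that held the groups compared: 0.93 to 2.07 for 1B minus chow on 3 slides, 1.40 to 4.03 for HFD minus chow on 3 slides, and -3.13 to -0.73 for HFD+1B minus HFD on 4 slides. Without HFD mouse 3 the difference of HFD from chow was 2.21 and that of HFD+1B from HFD was -1.05. In intensity units, the Cy5 signal of the probe ran from 961 to 1998 for chow mice, from 2535 to 6762 for 1B mice, from 1220 to 16397 for HFD mice, and from 1627 to 5885 for HFD+1B mice. In HFD mouse 1 the probe was at 1220 units in Cy5 and 1477 units in Cy3, the lowest Cy3 value of any array. Median Cy5 signals of whole arrays were 63 to 70 units in HFD mice 1, 2, and 4 and in 1B mouse 4, and at least 90 units in all others. In bulk liver RNA, fewer cells that express a gene and less of its RNA per cell cannot be told apart.

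Malat1 was measured by 4 probes that did not move alike. The brightest, probe 1, had a log2 ratio of -0.11, -0.85, -0.75, and -0.30 in chow mice 1 to 4 and -0.07, 0.09, 0.29, and -0.51 in 1B mice 1 to 4. It was -0.44, -0.82, and -1.09 in HFD mice 2 to 4, with the spot of HFD mouse 1 left out as an outlier by the scanner software, and -0.04, 0.39, 0.26, 0.54, and 0.06 in HFD+1B mice 1 to 5. Every HFD+1B mouse was above every HFD and every chow mouse, and the remaining neighbors in the order of levels (HFD+1B, 1B, chow, and HFD) overlapped. The difference was 0.45 (SE 0.20) for 1B minus chow, -0.28 (SE 0.21) for HFD minus chow, and 1.02 (SE 0.20), or 2.03-fold, for HFD+1B minus HFD. Within slides, HFD minus chow was 0.41 on one and -0.52 on another, so its sign was not settled.

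Probe 2 gave the opposite sign for high-fat diet. Its mean was -0.43 ± 0.15 (SD, n = 4) in chow, 0.19 ± 0.30 (SD, n = 4) in 1B, 0.03 ± 0.13 (SD, n = 3, without HFD mouse 3, whose spot was an outlier) in HFD, and 0.41 ± 0.14 (SD, n = 5) in HFD+1B. Here all measured HFD mice were above all chow mice, by 0.47 (SE 0.14), and all HFD+1B mice were above all HFD mice, by 0.38 (SE 0.14). In 1B the probe was at 0.37, 0.30, and 0.36 in mice 1 to 3 and at -0.25 in mouse 4, which alone overlapped the chow mice. The difference of 1B from chow was 0.63 (SE 0.13).

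Probe 3 showed the largest differences of the Malat1 probes. Its log2 ratio was -0.36, -0.44, -0.31, and 0.23 in chow mice 1 to 4 and -3.51, -3.64, -4.17, and -4.16 in HFD mice 1 to 4. It scattered widely in the ethanol groups, at -1.77, 0.36, 0.43, and -1.36 in 1B mice 1 to 4 and at 0.77, 0.19, -1.94, 0.99, and -2.88 in HFD+1B mice 1 to 5. HFD lay below all other arrays, 3.65 (SE 0.69) below chow on the log2 scale, or 12.5-fold, and HFD+1B was above HFD by 3.29 (SE 0.65). The Cy5 signal of the probe in HFD was only 58 to 122 units, against 2534 to 5656 units in chow, so that the offset of 50 units used in the background correction makes the fold change too small. Under the other background corrections and scalings the difference of HFD from chow was as large as -4.51.

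Probe 4, like probe 3, was lower in HFD than in chow and higher in HFD+1B than in HFD, with smaller differences. Its mean was -0.25 ± 0.41 (SD, n = 4) in chow, -0.14 ± 0.56 (SD, n = 4) in 1B, -1.41 ± 0.33 (SD, n = 4) in HFD, and 0.19 ± 0.62 (SD, n = 5) in HFD+1B. The HFD mice, between -1.75 and -1.08, were below all other mice. The difference was -1.16 (SE 0.31) for HFD minus chow, 1.60 (SE 0.30) for HFD+1B minus HFD, and 0.11 (SE 0.31) for 1B minus chow, where that of probe 3 was -0.36 (SE 0.69).

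**Figure D2:**
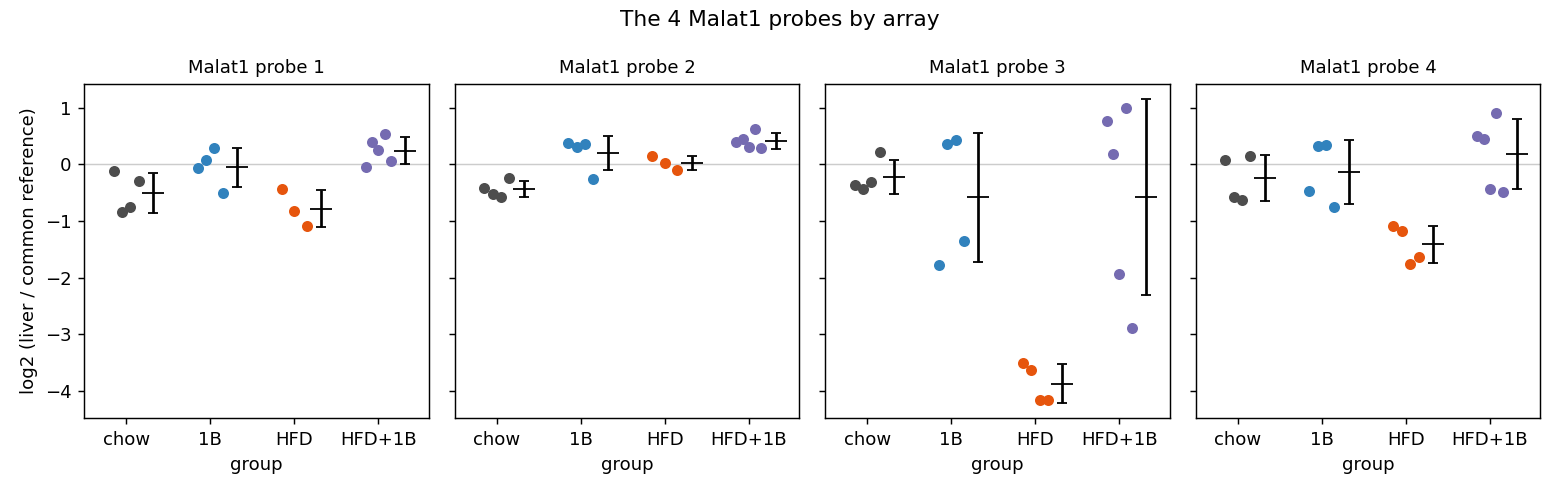
Log2 ratio of liver over common reference (vertical axis) for each of the 4 Malat1 probes in the 4 groups, with 1 colored point per mouse and the mean with its SD as a black bar. All 4 probes were higher in HFD+1B than in HFD, but in HFD probe 2 was above chow (0.03 against -0.43) and probe 3 was far below it (-3.87 against -0.22).

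The spread among the probes can be read within arrays, as the gap between 2 probes on the same array. The log2 ratio of probe 1 minus that of probe 3 was -0.28 ± 0.36 (SD, n = 4) in chow and 3.21 ± 0.14 (SD, n = 3) in HFD, with 0.53 ± 0.93 (SD, n = 4) in 1B and 0.82 ± 1.66 (SD, n = 5) in HFD+1B. For probe 2 minus probe 4 the gap was -0.19 ± 0.28 (SD, n = 4) in chow and 1.33 ± 0.18 (SD, n = 3) in HFD. So within the HFD arrays the probes of this RNA changed unequally, and a single level of Malat1 in HFD could not be given from these data. Averaged over the 4 probes, the differences were -1.16 for HFD minus chow and 1.57 for HFD+1B minus HFD.

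Neat1 and Malat1 probe 1 differed most within HFD arrays. The log2 ratio of Neat1 minus that of Malat1 probe 1 was -1.01 ± 0.70 (SD, n = 4) in chow, 0.15 ± 0.31 (SD, n = 4) in 1B, 1.99 ± 0.98 (SD, n = 3) in HFD, and -0.60 ± 0.47 (SD, n = 5) in HFD+1B. Against Malat1 probe 2 the gap in HFD was 0.66 ± 0.38 (SD, n = 3), still above the -1.08 ± 0.55 (SD, n = 4) of chow.

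The level of ribosomal RNA was set beside that of each member probe, and the relation differed by probe. Since the HFD arrays form a cluster of their own, no correlation over all arrays is given, and the values below describe the 13 arrays of the other groups, which share a reference and 5 slides. Over these arrays Pearson's r with the ribosomal RNA mean was -0.46 for Neat1 (Spearman's rho -0.67), 0.09 for Malat1 probe 1 (rho -0.05), -0.15 for probe 2 (rho -0.09), 0.75 for probe 3 (rho 0.52), and 0.56 for probe 4 (rho 0.36). Without the 2 arrays farthest from the median of ribosomal RNA, 1B mouse 1 and HFD+1B mouse 5, r was -0.45 for Neat1, 0.28, 0.13, 0.46, and 0.51 for Malat1 probes 1 to 4. As deviations from the group means over all arrays, with the HFD arrays included, r was -0.39 for Neat1 and 0.52, 0.30, 0.75, and 0.72 for Malat1 probes 1 to 4, so that the values of probes 1 and 2 differed with the arrays and the way of reading them. The value for probe 3 in the 13 arrays rested in part on those 2 arrays, in which ribosomal RNA was at -1.16 and -1.03 and probe 3 at -1.77 and -2.88. Neat1 and ribosomal RNA moved in opposite directions in each of the 3 comparisons, and the part of ribosomal RNA in the differences of Neat1 and Malat1 was not tested.

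**Figure D3:**
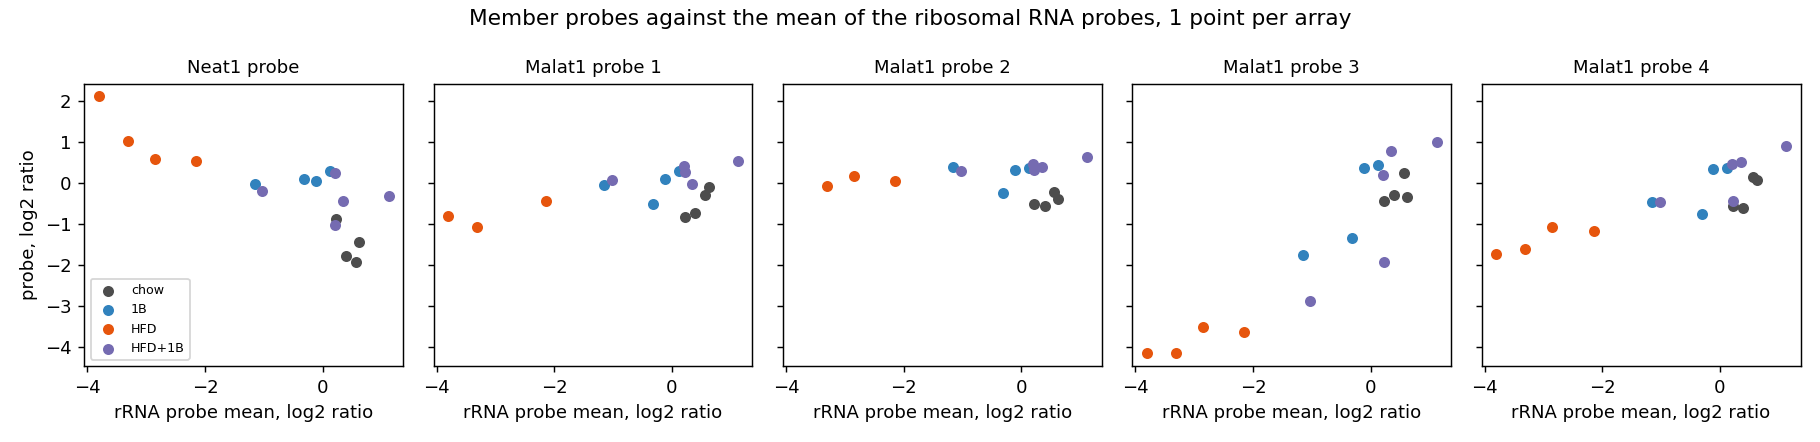
Log2 ratio of each member probe (vertical axes) against the mean log2 ratio of the 5 ribosomal RNA probes (horizontal axes), with 1 point per array colored by group. The HFD arrays lie apart on the left, between -3.81 and -2.15, with Neat1 at its highest and Malat1 probe 3 at its lowest.

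Other RNAs without a long poly(A) tail were measured by a few probes. Rmrp, the RNA of RNase MRP, which cuts the ribosomal precursor, had a log2 ratio of -0.11, -0.12, -0.00044, and -0.23 in chow mice 1 to 4 and of -1.55, -1.58, -1.70, and -1.73 in HFD mice 1 to 4. It fell by 1.53 in HFD against chow (SE 0.25, adjusted p = 0.00117 in limma) and rose in HFD+1B against HFD by 1.28 (SE 0.23, adjusted p = 0.0014). Terc, the telomerase RNA, fell by 1.11 (SE 0.20, adjusted p = 0.00212) and rose by 1.21 (SE 0.19, adjusted p = 0.000379) in these comparisons at its brighter probe, while its dimmer probe was at 0.24 (adjusted p = 0.268) and -0.42 (adjusted p = 0.0277). These genes come from a list of small structured RNAs in which 12 of 15 genes were tested and which, by its rule on symbols, also holds the microRNA host Mir22hg, and of the 12, 1 fell in 1B against chow (2.04% of all genes), 4 fell in HFD against chow (6.48% of all genes), and 3 rose in HFD+1B against HFD (11.0% of all genes). The median difference of the 12 was smaller, at -0.10, -0.21, and 0.09 in these comparisons. Rmrp and Terc were named outside the rule used for the other lists, so they do not stand for such RNAs as a whole. Mir22hg was the gene called in 1B against chow and was among the 4 in HFD against chow. It is counted again among the other long noncoding RNAs below.

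The proteins of paraspeckles were next compared. A gene was called where its brightest probe had an adjusted p, by Benjamini and Hochberg's method over the 34664 probes tested, of at most 0.05. Over all genes, 2.09% were called higher and 2.04% lower in 1B against chow, 4.50% and 6.48% in HFD against chow, and 11.0% and 8.41% in HFD+1B against HFD. Of the 33 paraspeckle protein genes, all tested, 2 rose and 0 fell in 1B against chow (6.06%, against 4.12% of all genes). Those were Dazap1, an RNA-binding protein, by 0.61 (SE 0.15, adjusted p = 0.0218), and Pspc1, a core paraspeckle protein, by 0.54 (SE 0.12, adjusted p = 0.0138). In HFD against chow 1 rose and 3 fell (12.1%, against 11.0% of all genes), and in HFD+1B against HFD 4 rose and 6 fell (30.3%, against 19.4%). The median difference of the list was 0.08, 0.01, and -0.11 in these comparisons, and that of all genes was 0.01, 0.00, and 0.01.

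The core proteins that bind Neat1 had small differences. Pspc1 was at -0.43, -0.29, -0.14, and -0.37 in chow mice 1 to 4 and at 0.40, 0.12, 0.02, and 0.38 in 1B mice 1 to 4, with no overlap. Nono fell with ethanol on high-fat diet (-0.49, SE 0.13, adjusted p = 0.0125) and was at 0.03 (SE 0.13, adjusted p = 0.906) in HFD minus chow. Sfpq did not pass in any of the 3 comparisons at its brighter probe (0.47 with adjusted p = 0.149 in 1B minus chow), while its other probe passed in HFD+1B minus HFD (0.40, adjusted p = 0.0444) with the opposite sign of the brighter one (-0.25). Rbm14, needed for paraspeckle assembly, was at 0.49 (SE 0.15, adjusted p = 0.1) in 1B minus chow.

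Taf15, an RNA-binding protein of the nucleus, fell by 1.43 in HFD against chow (SE 0.31, adjusted p = 0.00761) and rose in HFD+1B against HFD by 1.13 (SE 0.30, adjusted p = 0.0131), but its second probe, of like brightness, was at 0.06 (adjusted p = 0.894) and -0.39 (adjusted p = 0.158). Fam98a fell by 0.77 in HFD+1B against HFD (SE 0.17, adjusted p = 0.00435). Ss18l1, a subunit of chromatin remodelers, rose there by 0.59 (SE 0.17, adjusted p = 0.0238). In HFD against chow Srsf10, a splicing regulator, fell by 0.55 (SE 0.14, adjusted p = 0.0221), while its other 3 probes, at 0.03 to 0.28, did not pass. There Hnrnph1, another such regulator, rose by 0.37 (SE 0.11, adjusted p = 0.0466), a call lost under 15 of 28 alternatives.

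Of the 34 genes for nuclear speckle and splicing proteins, all tested, 0 passed in limma in 1B against chow, where 4.12% of all genes did. There 10 were higher and 0 lower at an unadjusted p under 0.05. By the analysis of variance with Tukey's test of the study's methods, with p adjusted over all probes here, 0 passed. In HFD against chow 1 rose and 4 fell (14.7%, against 11.0% of all genes), and in HFD+1B against HFD 6 rose and 3 fell (26.5%, against 19.4%). The scaffold proteins Son and Srrm2 did not pass in any of the 3 comparisons, nor did Srsf2 at its brightest probe, although of its other 3 probes 1 was at 0.43 (adjusted p = 0.0325) in 1B minus chow, and the other two were at -0.42 (adjusted p = 0.0198) and -0.88 (adjusted p = 0.00055) in HFD+1B minus HFD. Srsf5, a serine/arginine-rich splicing factor, fell by 0.85 in HFD against chow (SE 0.24, adjusted p = 0.0311; -0.50 without HFD mouse 3, and lost under 6 of 28 alternatives) and rose in HFD+1B against HFD by 1.49 (SE 0.23, adjusted p = 0.00035). Srsf6, of the same family, fell by 1.11 in HFD+1B against HFD (SE 0.15, adjusted p = 0.000126), and its second probe fell too (-0.63, adjusted p = 0.0156). Srsf6 had been at 0.13, 0.42, 0.60, and 0.64 in HFD mice 1 to 4 and was at -0.99, -0.36, -0.70, -1.01, and -0.27 in HFD+1B mice 1 to 5.

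Srsf1 fell by 0.47 in HFD+1B against HFD (SE 0.13, adjusted p = 0.0222), with its dimmer probe at 0.04 (adjusted p = 0.877). Rnps1, a peripheral protein of the exon junction complex, rose there by 0.89 (SE 0.12, adjusted p = 0.000102), with its dimmer probe at 0.16 (adjusted p = 0.445). The SR protein kinase gene Srpk2 fell by 1.23 in HFD against chow (SE 0.28, adjusted p = 0.0167), but with values in only 2 HFD+1B, 3 chow, and 3 1B mice, and its 4 other probes did not pass. Ddx39b, an RNA helicase of splicing and mRNA export, rose in HFD against chow by 0.58 (SE 0.15, adjusted p = 0.0239), and its second probe rose by 0.47 (adjusted p = 0.0199).

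Of the 14 genes for RNase P and 3′ end processing, 13 were tested. In 1B against chow 1 was called (7.69%, against 4.12% of all genes). This was Pop5, an RNase P subunit, which rose by 0.52 (SE 0.13, adjusted p = 0.0324), a call lost under 13 of 28 alternatives. In HFD against chow 0 passed in limma, where 11.0% of all genes did. At an unadjusted p under 0.05, 4 were higher and 2 lower, and by the analysis of variance with adjusted p 0 passed. In HFD+1B against HFD 3 were called, all lower (23.1%, against 19.4% of all genes). These were the RNase P subunits Rpp21, by 0.72 (SE 0.15, adjusted p = 0.00256), and Rpp30, by 0.53 (SE 0.12, adjusted p = 0.00664), and Mettl16, a methyltransferase that binds the Malat1 triple helix, by 0.50 (SE 0.13, adjusted p = 0.0113), whose dimmer probe was at -0.04 (adjusted p = 0.901). Elac2, the RNase Z that trims the small RNA released from the Malat1 end, was at -0.38 (SE 0.15, adjusted p = 0.0819) at its brighter probe and at -0.57 (adjusted p = 0.00288) at the other.

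Among 43 other long noncoding RNAs, 25 had a probe and 23 were tested. In 1B against chow 3 were called, all lower (13.0%, against 4.12% of all genes): Mir22hg, the host of a microRNA, by 0.87 (SE 0.17, adjusted p = 0.00666), Snhg11, a host of small nucleolar RNA, by 0.56 (SE 0.14, adjusted p = 0.0255), and Dleu2, another microRNA host, by 0.53 (SE 0.14, adjusted p = 0.0366). In HFD against chow 1 rose and 4 fell (21.7%, against 11.0% of all genes). The same 3 genes were among those that fell, by 0.79 for Mir22hg, 0.74 for Snhg11, and 0.47 for Dleu2 (adjusted p = 0.00753, 0.0028, and 0.0387). These comparisons share the chow mice. The calls of Dleu2 were lost under 9 and 11 of 28 alternatives, and from the Cy5 channel alone it was at -0.15 and -0.015. The call of Snhg11 in 1B against chow was lost under 11. Snhg18 rose by 0.64 (SE 0.17, adjusted p = 0.023).

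In HFD+1B against HFD 1 of these RNAs rose and 2 fell (13.0%, against 19.4% of all genes). Snhg5 rose by 0.81 (SE 0.18, adjusted p = 0.00434), with its dimmer probe at 0.18 (adjusted p = 0.266). Oip5os1 fell (-1.10, SE 0.15, adjusted p = 0.00014) at its brightest probe, with the other 2 probes at -0.08 (adjusted p = 0.688) and 0.12 (adjusted p = 0.459). Firre, a nuclear RNA that is retained on chromatin, was at -0.25 (SE 0.08, adjusted p = 0.0395), and at 0.02 with median centring.

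**Figure D4:**
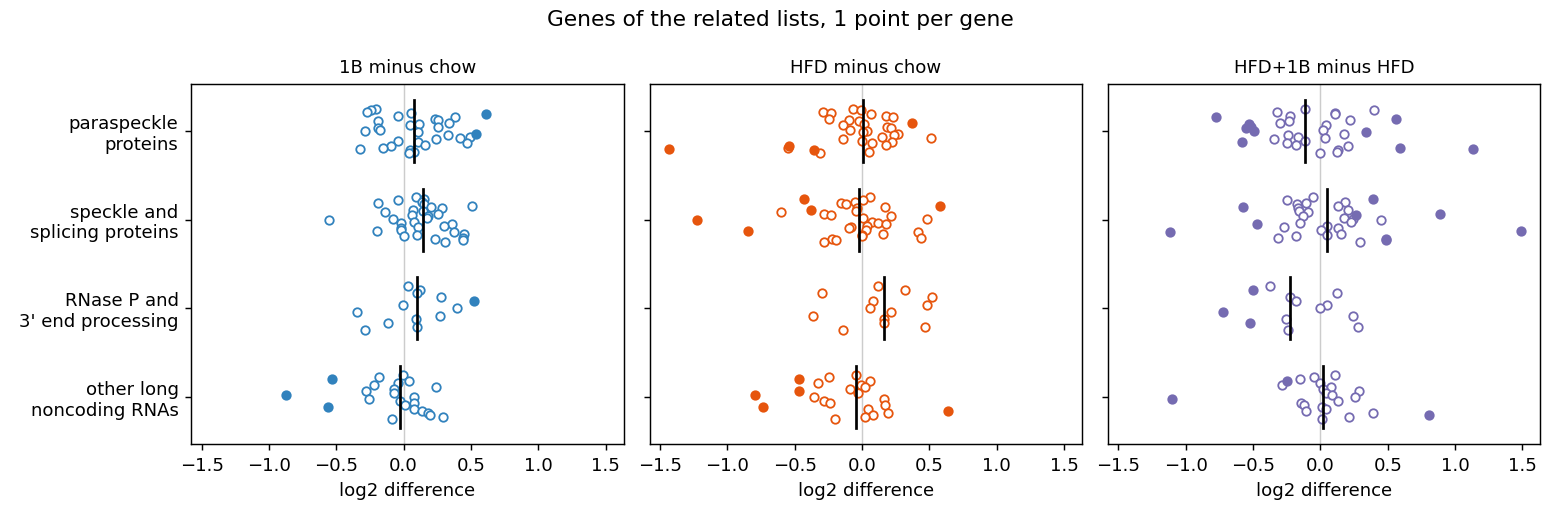
Difference of group means on the log2 scale (horizontal axes) for each tested gene of 4 lists in 3 comparisons, with 1 point per gene, filled where the adjusted p was 0.05 or less, and a black bar at the median of the list. The medians lay between -0.22 and 0.16, and genes called in either direction stand on both sides in HFD+1B minus HFD except for RNase P and 3′ end processing.

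The ethanol difference on high-fat diet minus that on chow was tested for these lists too, where 2.67% of all genes were called positive and 1.72% negative, or 4.39% together. Of the paraspeckle genes 6 of 33 were called, all negative. These counts were not run under the alternatives. In HFD+1B against HFD, the paraspeckle genes called lower depended on the scaling. They numbered 6, but 1 with median centring, 1 from the Cy5 channel alone, and 7 from the authors' table. Of the speckle and splicing genes 2 were positive and 3 negative, of the RNase P and 3′ end genes 1 of 13 was called, negative, and of the other long noncoding RNAs 1 was positive and 1 negative.

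The genes around Malat1 and Neat1 were compared last, within 300 kb on each side in a newer build of the mouse genome, from which only the order of genes was taken. Of 46 neighbors, 34 were tested. In 1B against chow 2 rose and 0 fell (5.88%, against 4.12% of all genes). In HFD against chow 0 rose and 1 fell (2.94%, against 11.0%), and in HFD+1B against HFD 3 rose and 2 fell (14.7%, against 19.4%).

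Frmd8, the gene that follows Neat1 in this order and encodes a partner of the iRhom proteins, which support the sheddase ADAM17, had the largest differences of the neighbors tested in both ethanol comparisons. Its log2 ratio was -2.51, -1.96, -2.20, and -2.38 in chow mice 1 to 4 and -0.10, 0.19, 0.23, and 1.21 in 1B mice 1 to 4. It was -1.81, -1.78, -1.24, and -1.83 in HFD mice 1 to 4, and 0.03, 0.41, 0.93, 0.18, and 1.15 in HFD+1B mice 1 to 5. All 9 mice given ethanol were above all 8 mice given maltose. Frmd8 rose by 2.65 (SE 0.26, adjusted p = 2e-05) with ethanol on chow and by 2.21 (SE 0.25, adjusted p = 3.42e-05) with ethanol on high-fat diet, and the second probe rose by 2.32 and 1.71 (adjusted p = 3.18e-05 and 0.000126). With high-fat diet alone it was at 0.60 (SE 0.26, adjusted p = 0.16). The ethanol difference on high-fat diet minus that on chow was -0.44 (SE 0.36, adjusted p = 0.547), where that of Neat1 was -3.02 (SE 0.42). Both calls of Frmd8 were kept under all 28 alternatives.

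Further along, Syvn1, a ubiquitin ligase of the endoplasmic reticulum, rose in 1B against chow by 1.24 (SE 0.22, adjusted p = 0.00279) and was at 0.06 (adjusted p = 0.886) in HFD+1B minus HFD, and its second probe was at 0.45 (adjusted p = 0.32) in 1B minus chow. Tm7sf2, a sterol reductase of cholesterol synthesis, fell by 0.74 in HFD against chow (SE 0.19, adjusted p = 0.0215). In HFD+1B against HFD, Capn1, a calpain protease, rose by 0.80 (SE 0.24, adjusted p = 0.0298), a value of 0.40 without HFD mouse 3 and a call lost under 4 of 28 alternatives, and Sac3d1 fell by 0.67 (SE 0.14, adjusted p = 0.0029). The remaining called neighbors, named after their values were seen to complete the count, were Rela, a subunit of NF-κB, at 0.53 (adjusted p = 0.0466), and Znrd2, at -0.50 (adjusted p = 0.0111). Slc25a45, beyond Frmd8, did not pass in these comparisons.

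**Figure D5:**
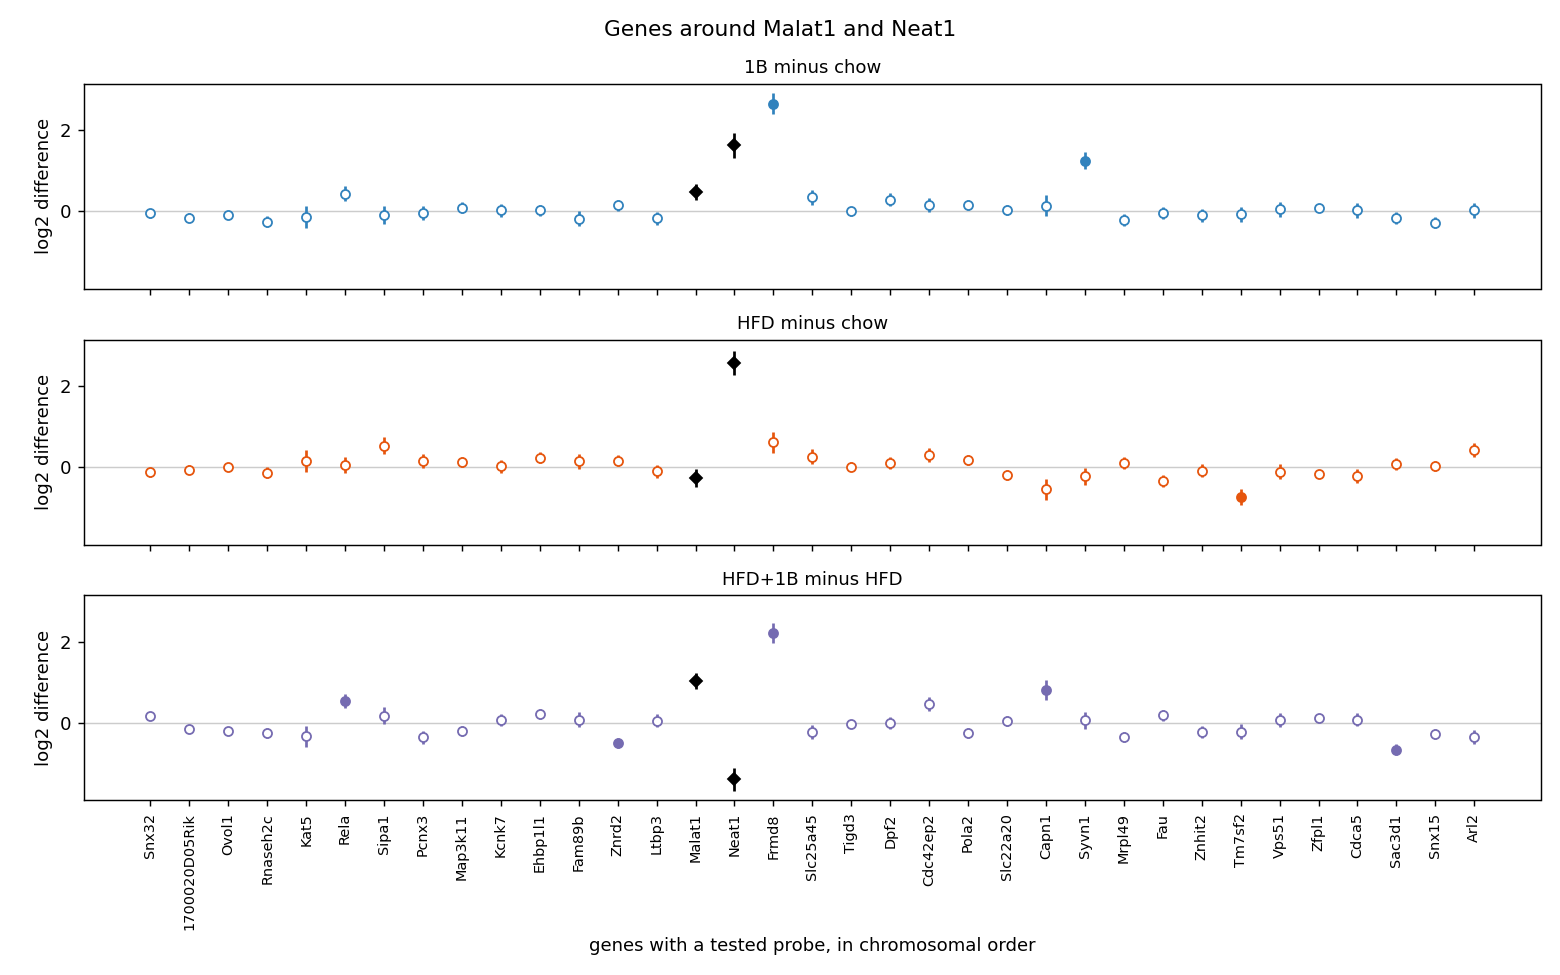
Difference of group means on the log2 scale with its SE (vertical axes) for tested genes around Malat1 and Neat1 in chromosomal order, in 3 comparisons, with not every neighbor shown. Circles are filled where the adjusted p was 0.05 or less, and black diamonds mark Malat1 probe 1 and Neat1, which were not tested. Frmd8 stands out in both ethanol comparisons, at 2.65 and 2.21, whereas Neat1 was at 1.61 in the upper panel and at -1.40 in the lower.

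As a description, the genes whose log2 ratios over the 17 arrays were most like those of Neat1 were Mppe1 (Pearson's r 0.89), Ddx1 (0.87), Arf1 (0.86), Slc37a3 (0.85), and Tmem263 (0.85), out of 15362 genes with a value on every array, and the most opposite were Klhl24 (-0.89), Slc8a1 (-0.87), and Topors (-0.87). For Malat1 probe 1, over 16 arrays, the most alike were Lmod3 (0.95), Fthl17e (0.94), Pip5k1c (0.94), Spata20 (0.94), and Il31ra (0.93), and the most opposite were Ndufs8 (-0.93), Mrps14 (-0.88), and Gtf3c3 (-0.88). The arrays share the reference and the groups, and no test was made of these values.

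Markers of liver cell types were read beside these results. Alb, the albumin gene, had a log2 ratio of 0.81 to 1.66 on all arrays. The others checked, Apoa1 and Ttr, ran from -0.18 to 1.28 and from -0.34 to 0.93. All 7 hepatocyte markers tested were well above background on every array. In 1B against chow 1 of 7 neutrophil markers and 1 of 6 sinusoidal endothelium markers rose, where 2.09% of all genes did. No other marker was called there. In HFD against chow 2 of 7 macrophage and Kupffer cell markers and 2 of 6 stellate cell markers rose, where 4.50% of all genes did. There 2 of 6 sinusoidal endothelium markers and 1 of 7 neutrophil markers rose too, and 1 of 7 hepatocyte markers fell, where 6.48% did. In HFD+1B against HFD 2 of 7 neutrophil markers and 2 of 6 stellate cell markers rose, while 1 of 6 endothelium markers rose and 3 fell, and 2 of 7 hepatocyte markers rose and 1 fell, where 11.0% of all genes rose and 8.41% fell. The summed Cy5 level of the macrophage markers was 12.2 to 12.7 in chow and 11.4 to 12.7 in HFD on the log2 scale. This level was not scaled between arrays, whose median Cy5 signals were 99 to 138 units in chow and 63 to 98 in HFD. Of 4 cholangiocyte markers 1 fell in HFD against chow and 2 rose in HFD+1B against HFD, where 1 of 5 T cell and 1 of 4 B cell markers rose too. The 4 erythroid markers had a median difference of 0.22 and 0.26 in these comparisons. The part of these markers in the differences of Neat1, Malat1, and their neighbors was not tested.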

How the data were processed

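Liver RNA of 17 mice was hybridized against a common reference on 2-color Agilent arrays without dye swap. The authors extracted spots with Agilent Feature Extraction 11.5.1.1, and the deposited scanner files hold the raw intensity of both channels and the processed signals. A table deposited by the authors gives log2 ratios, and these differed by at most 2.7e-06 from those computed from the processed signals. Symbols were updated through RefSeq accessions.

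From the raw intensity, background was corrected with normexp at an offset of 50, ratios were normalized by loess within arrays, outlier spots were left out, and spots of 1 probe were averaged. The 34664 of 41174 probes well above background in Cy5 on at least 4 arrays, with a value in every group, were fitted by group means with limma 3.58.1 in R 4.3.3 (13 residual degrees of freedom), which was tested on simulated data. Each mouse is 1 sample, and the number of arrays limits the precision. Genes of the lists were called at a Benjamini-Hochberg adjusted p of 0.05 or less. The members and lists were chosen with earlier results of these data known. Named were all member and ribosomal RNA probes, a fixed set of binding and processing proteins, up to 3 called genes with the largest change per list and comparison, and the 5 most alike and 3 most opposite genes. Rmrp and Terc were named outside this rule. Alternatives changed the background correction, scaling, filter, test, blocks, and arrays used. The deposited log10 ratios were not used. Some results are not reported here.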

Additional observations from a re-analysis of the deposited data

Results flagged for a closer look

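Neat1 differed in opposite directions with ethanol on chow and on high-fat diet, with no overlap between the groups in either comparison, and the difference between the ethanol effects was -3.02 on the log2 scale. The ribosomal RNA probes showed the reverse, with differences of 4.65 and 4.18 for Rn18s probes 1 and 2, 2.53 for the Rn28s1 probe, and 4.02 for the mean of the ribosomal RNA probes. These differences were not tested, since the genes were chosen on their values in these arrays.

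Among the named genes outside these, the ethanol effect on high-fat diet minus that on chow passed the interaction test in limma for 12, where 4.39% of all genes passed. It was positive for Srsf5 (1.68, adjusted p = 0.0115), Rnps1 (0.63, adjusted p = 0.0418), Mir22hg (0.96, adjusted p = 0.0316), Rmrp (1.76, adjusted p = 0.0115), and Terc (1.81, adjusted p = 0.00285). It was negative for Srsf6 (-1.49, adjusted p = 0.00244), Srsf1 (-0.83, adjusted p = 0.0255), Fam98a (-1.15, adjusted p = 0.0162), Hnrnph1 (-0.63, adjusted p = 0.0318), Pop5 (-0.71, adjusted p = 0.0376), Oip5os1 (-0.84, adjusted p = 0.0359), and Syvn1 (-1.18, adjusted p = 0.0357). These genes were partly named for a change in one of the ethanol comparisons, so their share is no measure of how often such differences occur.

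In 10 of 193 groups of mice examined, 1 mouse stood apart from the others, where chance gives 9.7. The gap to the nearest mouse was 0.889 of the whole range for Malat1 probe 2, where 1B mouse 4 was at -0.25 and the other 1B mice at 0.30 to 0.37. For Frmd8, HFD mouse 3 was the highest of its group (0.903 of the range), at -1.24 against -1.83 to -1.78. HFD mouse 3 was also the highest for Rbm14 (0.974) and the lowest for Rnps1 (0.887), and 1B mouse 4 was the highest for Rnps1 (0.86) and Snhg5 (0.843). The remaining mice apart were the lowest of their groups, namely HFD+1B mouse 1 for Dazap1 (0.726), chow mouse 1 for Srrm2 (0.85), chow mouse 2 for Mir22hg (0.931), and 1B mouse 3 for Firre (0.86).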

How the results depend on the processing

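The differences of Neat1 kept their direction under all 25 alternatives, at 1.45 to 1.82 for 1B minus chow, 2.21 to 2.77 for HFD minus chow, -1.58 to -1.05 for HFD+1B minus HFD, and -3.22 to -2.66 for the difference of the ethanol effects. Those of Malat1 probe 1 kept theirs under all 26, which include the mean of the 4 probes. For that mean, HFD minus chow was -1.16, HFD+1B minus HFD 1.57, and the difference of the ethanol effects 1.37. For probe 1, the difference of the ethanol effects was 0.91 with median centring, and HFD+1B minus HFD was 0.68 from the Cy5 channel alone. Probe 2 had the opposite sign of probe 1 for HFD minus chow (0.47) and the difference of the ethanol effects (-0.25). Counts of list genes called moved more, and the cause was not tested. In the order 1B against chow, HFD against chow, HFD+1B against HFD, the Cy5 channel alone gave 0, 1, and 2 paraspeckle genes, 3 and 4 speckle genes in the last pair of comparisons, 0 and 0 RNase P genes in the outer pair, 0, 1, and 1 other long noncoding RNAs, and 1, 0, and 3 neighbors. A 2-fold change with an unadjusted p gave 0, 1, and 1 paraspeckle genes, 1 and 2 speckle genes, 0 and 0 RNase P genes, 0, 0, and 1 other long noncoding RNAs, and 0 and 1 neighbors in the last pair of comparisons. The analysis of variance with Tukey's test, which the study's methods do not name for the arrays, was run with Benjamini-Hochberg adjusted p over all probes. It gave 0, 0, and 3 paraspeckle genes, 0 and 3 speckle genes, and 0 and 1 RNase P genes. Other long noncoding RNAs numbered 0, 0, and 1, and neighbors 1, 0, and 2. Median centring, which put the median of all genes in HFD+1B minus HFD at 0.14, gave 1 paraspeckle gene in 1B against chow and 5 in HFD+1B against HFD (4 higher and 1 lower, against 4 and 6), 0 RNase P genes in 1B and 1 in HFD against chow, 1 other long noncoding RNA in 1B, 2 neighbors in HFD against chow, and Firre at 0.019. There it also gave 10 higher and 1 lower speckle genes, 3 and 1 other long noncoding RNAs, and 6 and 1 neighbors in HFD+1B against HFD. The authors' table gave 1 paraspeckle gene and 0 RNase P genes in 1B against chow, as did an offset of 16 for the latter (0). With the slide as a block, speckle genes were 1 in 1B and 3 in HFD against chow, RNase P genes 5 in HFD+1B against HFD, and neighbors 2 in HFD against chow.

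Mice with the same number in different groups deviated together only in part (r -0.126 to 0.479, median 0.18, against a median of -0.05 for mice of another number and slide), and many of them share a slide, so the number was not taken as a pairing. With the replicate number as a block, Neat1 was at 1.61, 2.56, and -1.44 in these comparisons, speckle genes numbered 1 in 1B against chow, RNase P genes 5 and neighbors 9 in HFD+1B against HFD, and neighbors 2 in HFD against chow, and number 5 occurs only in HFD+1B. Leaving out each mouse in turn gave, in the same order, 1 to 3, 1 to 5, and 7 to 12 paraspeckle genes, 0 to 2, 0 to 7, and 5 to 10 speckle genes, 0 to 1, 0 to 1, and 2 to 4 RNase P genes, 1 to 3, 2 to 5, and 2 to 4 other long noncoding RNAs, and 2 to 2, 0 to 1, and 3 to 6 neighbors. Without chow mouse 1, 1 paraspeckle gene was called in 1B against chow, without HFD mouse 3, 1 in HFD against chow, and without chow mouse 4, 0 speckle genes in HFD against chow. Of 3276 gene results under alternatives, 3068 kept their side of the threshold, 183 lost the call, and 24 gained it. A further 1 changed sign where the gene was called before or after. Changes of sign in results called in neither case were counted among the 3068. The number of arrays limits the precision, and Malat1 probe 3 in HFD was near the lower end of the signal range.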
